A study of Mus musculus with 675 samples.

Results

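Klhl30-high smooth muscle cells were those aortic smooth muscle cells in which the transcript of Klhl30, a gene of the kelch-like family, reached 100 CPM (a cell's count divided by all its counts and multiplied by 1e+06). They were selected on measured values: a smooth muscle cell had Myh11 at 1000 CPM or more, Cnn1 at 500 CPM or more, Cdh5 under 100 CPM and fewer than 2 of the fibroblast genes Dcn, Lum, Serpinf1 and Pi16 at 100 CPM. This rule took 548 of the 675 cells of the series as smooth muscle and, of these, 59 on plate A and 74 on plate B as Klhl30-high. Cells with 0 Klhl30 counts (Klhl30-zero, 53.9% and 32.4% of the smooth muscle cells of the plates) served as the comparison, and the remaining 77 and 97 cells had a count but stayed under 100 CPM (Klhl30-low).

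The series used Smart-seq2, which amplifies full-length cDNA from single cells sorted into plates and adds no molecular identifiers, so that reads copied from 1 molecule are counted separately. All cells came from male C57BL/6 mice aged 10 weeks, with no treatment or genotype named beyond the strain, while the series text gives adults of 8 to 21 weeks. The cells labelled aorta fill 2 plates, called A and B here, and each plate holds the pooled cells of 2 mice of its own. The plate is therefore the replicate (n = 2), and plate, mice and pool cannot be told apart. The protocol text speaks of heart where the tissue label says aorta, and the gate of the sort is not given there.

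Kelch-like proteins pair a BTB domain, which binds the scaffold protein CUL3, with a kelch propeller that holds a substrate, and many of them work as the adaptors that choose what a CUL3 ubiquitin ligase marks. Several members, such as Klhl40 and Klhl41, are known for their part in striated muscle, where they bear on the stability of sarcomere proteins. Smooth muscle cells of the aorta are contractile cells with Myh11, the smooth muscle myosin heavy chain, and Cnn1, the actin-binding protein calponin, and they also lay down the elastic wall.

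Klhl30 (ENSMUSG00000026308) lies on the plus strand of chromosome 1 from 91351016 to 91362416 in GRCm38, and GENCODE M21 gives it 1 protein-coding transcript with 8 exons, 3089 exonic bases and 1743 coding bases. Counts were made per gene identifier, so they do not tell transcripts apart. The coding sequence of this annotated transcript opens in exon 2, at chr1:91353679-91353768, with the 90 bases below and the start codon in capitals.
Klhl30: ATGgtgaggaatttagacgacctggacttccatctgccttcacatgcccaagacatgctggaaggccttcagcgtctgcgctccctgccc

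The Klhl30-high cells were 20% of the smooth muscle cells of plate A (exact Clopper-Pearson 95% interval 15.6 to 25.03%) and 29.2% of those of plate B (23.7 to 35.3%). Such intervals cover the error of counting cells and no other. Klhl30 ran from 114.03 to 1008 CPM in the members of plate A with a median of 286.2, and from 109.4 to 651 CPM in those of plate B with a median of 224.6. The lowest member held 16 counts on either plate, and the median member 86 counts on plate A and 78.5 on plate B. No member therefore held fewer than 16 counts, but counts here are reads, and the number of molecules behind them is not known. The levels of the members of both plates overlapped over most of their range. The values chose the cells, so they carry no test.

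Klhl30-low cells mostly held a trace. Their median was 5.52 CPM on plate A and 4.56 CPM on plate B, a median of 1 count in both, and exactly 1 count was seen in 40 of 77 and 51 of 97 of them. Members held 92.8% of all Klhl30 counts of smooth muscle cells on plate A and 93.1% on plate B, and the single highest cell held 6.04% and 2.53%. At the threshold the lowest members stood at 114.03 and 109.4 CPM and the highest cells outside at 88.7 and 90.8 CPM. There were 6 and 12 members from 100 to 150 CPM and 12 and 10 Klhl30-low cells from 50 to 100 CPM, so the levels pass through the threshold without a gap.

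**Figure D1:**
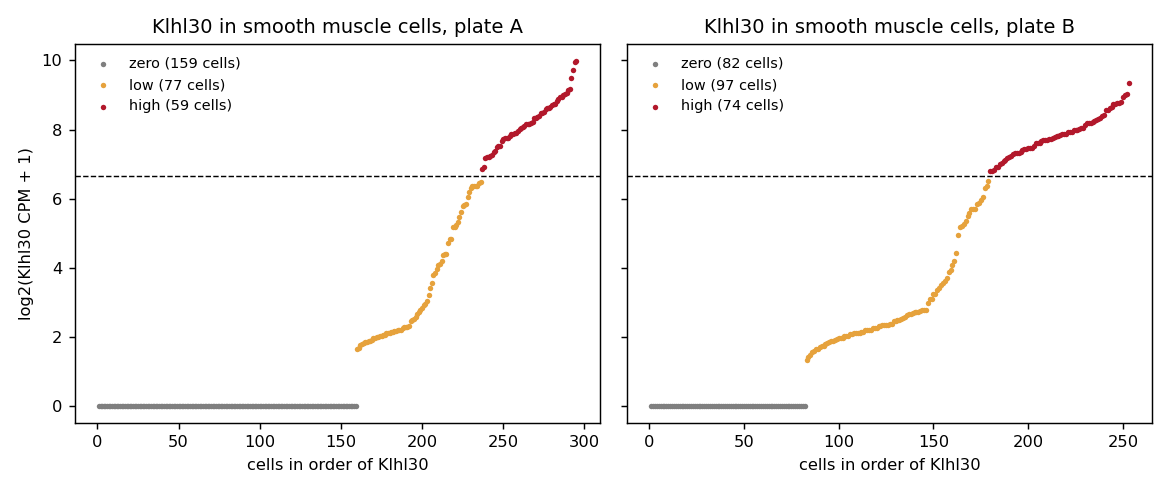
Klhl30 level in each smooth muscle cell, as log2(CPM + 1), with cells of plate A (left) and plate B (right) in order of their level; each point is 1 cell, coloured by class, and the dashed line marks 100 CPM. Cells with 0 counts form the flat start, single counts the shallow slope, and the 59 and 74 members the upper end, with no gap at the line.

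Klhl30 was compared with genes of like abundance in the same cells. Its mean over smooth muscle cells was 73.8 CPM on plate A and 79.3 CPM on plate B, and 1267 and 1147 genes had a mean from 0.8 to 1.25 times as high. Klhl30 was at 0 in 53.9% and 32.4% of the cells, against medians of 41.02% and 25.7% over those genes, and 3.95% and 17.96% of the genes were at 0 in a larger share. Its coefficient of variation (SD over mean) was 2.18 and 1.62, against medians of 1.74 and 1.40, and 5.05% and 15.4% of the genes exceeded it. Klhl30 thus lay toward the more uneven end of genes at its level on both plates without being the most uneven.

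In other cells of the same plates, Klhl30 did not reach 100 CPM in any of the 39 and 29 fibroblasts. These were cells with 2 or more of the fibroblast genes at 100 CPM, Cdh5 under 100 CPM and Myh11 under 1000 CPM. Their number allows a share of up to 7.69% and 10.3% when 3 cells of the total are taken as the limit. By the exact (Clopper-Pearson) 95% interval it allows up to 9.03% and 11.9%. Klhl30 did not reach 100 CPM in any of the 15 and 9 endothelial cells, taken as cells with Cdh5 at 100 CPM and Myh11 under 1000 CPM. This allows up to 20% and 33.3% by 3 cells and 21.8% and 33.6% by the exact interval. A count of any size was found in 46.1% and 67.6% of smooth muscle cells at median depths of 294814 and 327302 counts, and in 10.3% and 34.5% of fibroblasts at 147370 and 140447 counts. With each cell thinned to 20000 counts these shares were 26.8% and 36.8% against 2.56% and 13.8%. A Klhl30 count of any size was thus also common in fibroblasts of plate B, whereas levels of 100 CPM were found in smooth muscle and in 5 cells that met neither description in full.

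Depth differed little between classes on plate A and more on plate B. Median counts per cell were 288652 in Klhl30-zero, 306359 in Klhl30-low and 297056 in Klhl30-high cells on plate A, and 283032, 339809 and 351294 on plate B. Genes with a count numbered, at the median, 5342, 5472 and 5616 on plate A and 6052, 6226 and 6498.5 on plate B. Across cells, Spearman's rho of Klhl30 CPM with total counts was 0.06 on plate A and 0.18 on plate B, a description of cells that share a plate. Its part in the results was not tested beyond the thinned and deep-cell alternatives of the closing section. Members lay in 16 of 16 rows of wells on both plates and in 23 of 24 and 22 of 23 columns that held smooth muscle cells, so members were spread over both plates.

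**Figure D2:**
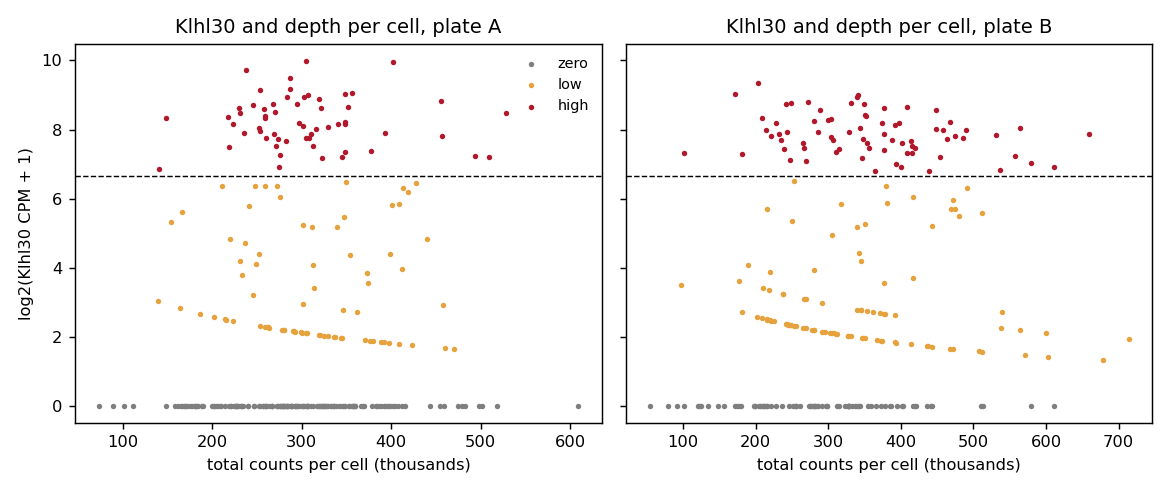
Klhl30 level as log2(CPM + 1) against the total counts of each smooth muscle cell, for plate A (left) and plate B (right); points are cells coloured by class and the dashed line marks 100 CPM. Members (red) ran from 140315 to 528248 counts on plate A and from 100400 to 659874 on plate B, and Klhl30-zero cells (grey) from 73698 to 608582 and from 53759 to 611268.

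The smooth muscle identity of the members was checked on their markers. The summed level of the 5 contractile markers outside the rule (Acta2, Tagln, Myl9, Lmod1 and Smtn) was 16772 CPM in Klhl30-high and 16827 CPM in Klhl30-zero cells on plate A, and 14591 and 15913 CPM on plate B. Of the genes that defined smooth muscle, Myh11 was at 4383 and 4213 CPM in high and zero cells of plate A and at 3423 and 3366 CPM on plate B, and Cnn1 at 2178 and 2229 and at 2383 and 2427 CPM. Each member held Myh11 and Cnn1 by the rule.

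Markers of other cell types were read in the same sums, and their part in the comparison of the classes was not tested. Of the 10 fibroblast markers, Col1a1, a collagen chain that smooth muscle also makes, stood at 1052 CPM in high and 1027 CPM in zero cells of plate A and at 1024 and 961 CPM on plate B, and was most of their sum. Dcn, Lum, Serpinf1 and Pi16, which the rule limits in every cell, summed to 28.6 and 28.8 CPM and to 44.3 and 78.6 CPM. The other 5 were Pdgfra, Dpep1, C3, Dpt and Clec3b. They summed to 12.6 CPM in high and 23.1 CPM in zero cells of plate A and to 13.2 and 23.04 CPM on plate B. Pdgfra, at 9.32 and 15.98 CPM and at 10.3 and 17.8 CPM, was most of these sums. Klhl30-low cells stood at 54.2 CPM on plate A and 7.59 CPM on plate B, so the sum did not follow the order of the classes. The 8 endothelial markers summed to 61.2 and 57 CPM and to 61.95 and 56.7 CPM. The pericyte list, which includes Rgs5, Notch3 and Pdgfrb that smooth muscle also expresses, summed to 1355 and 1740 CPM on plate A and to 1287 and 1258 CPM on plate B. Cardiomyocyte markers summed to 66 and 106.85 CPM on plate A, with 6 of 10 genes at 0 in members, and to 199.9 and 237.3 CPM on plate B, with Myl7, Nppa and Myl2 at 0. Skeletal muscle markers summed to 31.1 and 52.5 CPM and to 26.7 and 16.1 CPM, with the fast myosins Myh1, Myh2 and Myh4 at 0 in members of both plates. Macrophage, lymphocyte, mast cell and platelet, red blood cell, Schwann cell and neuron and mesothelial lists each summed to under 20 CPM in members, and the adipocyte list to 80.6 and 93.6 CPM with Adipoq and Plin1 at 0. No doublet caller was run.

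Whether other genes differ between Klhl30-high and Klhl30-zero cells was tested on counts summed per plate and class, with the plate as a block, in edgeR's quasi-likelihood test. None of the 15974 genes outside the rule passed an adjusted p of 0.05 (0%), and the smallest Benjamini-Hochberg adjusted p was 0.995. An unadjusted p under 0.05 was reached by 689 genes (4.31%), 376 with a lower level in Klhl30-high cells (2.35%) and the others with a higher one (1.96%). DESeq2, run on the same sums, called 31 of 14746 genes (0.21%), 12 higher and 19 lower. Klhl30 itself, at 342.8 and 243.2 CPM in the summed members of the plates and at 0 in the zero cells, differs by selection and is not counted.

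The fit gave an estimate for each gene with a width that can be stated. Over the 7662 genes with at least 20 CPM in a class on both plates, the median log2 fold change was 0.02, the 10th and 90th percentiles were -0.38 and 0.39, and the median half-width of the 95% interval was 0.62. For 4996 of them (65.2%) the whole interval lay within 2-fold either way. For the others a change of 2-fold is not bounded by these data, and a p that misses the threshold does not show that the classes were alike.

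Each plate on its own gave a check, since the plates share no cells and no mice. Over 8579 genes with 20 CPM in a class of either plate, the log2 ratio of Klhl30-high to Klhl30-zero cells (with 2 CPM added) on plate A had no linear relation to that on plate B (Pearson's r 0.00012, Spearman's rho -0.0035 across genes, which are not independent), and the sign was shared by 49.9%. Of the genes 2-fold higher in members on plate A, 9 were so on plate B (4.19%, against 2.48% of all genes). Of the genes 2-fold lower on plate A, 20 were so on plate B (5.83%, against 2.02%). Among the 9 higher genes were Trim35, Sphk1, Zmym6, Nek1 and Rnd1, and among the 20 lower ones were Mtmr10, Actc1, Zfp148, Armc6, Socs1 and Fbln1. These names were singled out after their values were seen.

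**Figure D3:**
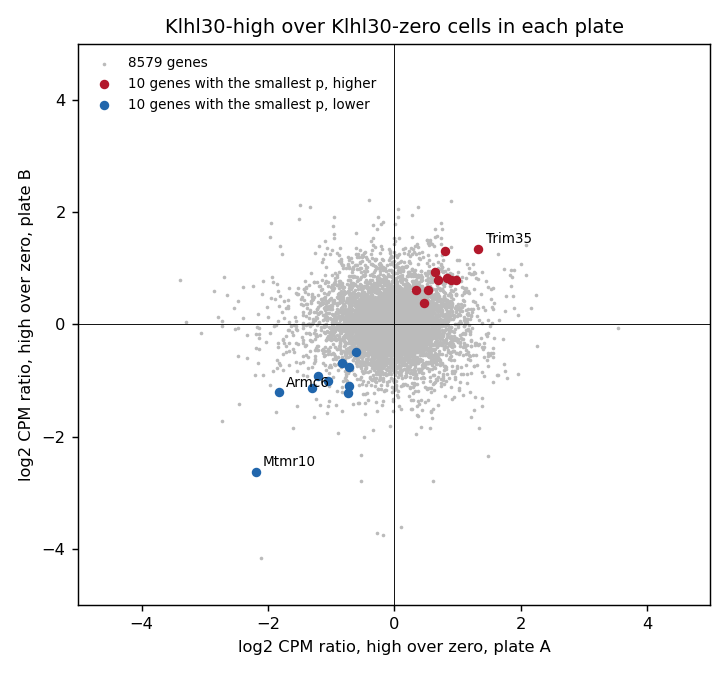
Log2 ratio of class CPM in Klhl30-high over Klhl30-zero cells, plate A on the horizontal and plate B on the vertical axis; grey points are 8579 genes, and coloured points the 20 genes with the smallest unadjusted p, which had to share the sign on both plates. The grey cloud is round about 0 (49.9% share a sign), with Trim35 at the upper right and Mtmr10 at the lower left.

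The gene with the smallest p among those with 20 CPM was Trim35, a RING-type ubiquitin ligase on chromosome 14 (66297031 to 66311424). It stood at 51.8, 84.2 and 133.1 CPM in Klhl30-zero, Klhl30-low and Klhl30-high cells of plate A. On plate B it stood at 36.2, 76.8 and 95.4 CPM, so the order of the classes was the same on both plates. Trim35 was named for its small p in a fit of these sums, so the shared order is no separate support. The log2 fold change was 1.39 ± 0.19 (SE; 95% interval 0.93 to 1.85), with an unadjusted p of 0.000351 and an adjusted p of 0.995 in edgeR, which did not pass, and an adjusted p of 1.24e-06 in DESeq2, which did. Trim35 reached 100 CPM in 18.2% of zero, 29.9% of low and 35.6% of high cells on plate A (29, 23 and 21 cells) and in 14.6%, 28.9% and 35.1% on plate B (12, 28 and 26 cells). The highest cell held 10.5% and 12.1% of the Trim35 counts of the members. Most members thus had Trim35 under 100 CPM, and the class levels did not come from 1 cell.

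The next 9 genes with a higher level in members and the smallest p did not pass the test in edgeR either. Itga5, the fibronectin-binding integrin chain, stood at 311.3 and 433 CPM in zero and high cells of plate A and at 435 and 564 CPM on plate B (log2 fold change 0.44 ± 0.08 SE). Art3, of the ADP-ribosyltransferase family, stood at 79.2 and 141.96 CPM and at 71.4 and 128.2 CPM (0.85 ± 0.19). P2ry6, a receptor for UDP that contracts vessels, stood at 33.8 and 60.6 CPM and at 23.3 and 60.6 CPM (1.13 ± 0.27). Itga5 was a gene of most smooth muscle cells, at 100 CPM or more in 71.2% and 86.5% of members against 54.7% and 71.95% of zero cells, while P2ry6 reached that level in 20.3% and 21.6% of members against 11.3% and 8.54%. The rest were Vdac1, a channel of the outer mitochondrial membrane (0.49 ± 0.11), Pxdn, which cross-links collagen IV (0.82 ± 0.20), Faf2 of the endoplasmic reticulum degradation machinery (0.89 ± 0.22), Med15 of the Mediator complex (0.60 ± 0.15), the Wnt5a receptor Ror1 (0.93 ± 0.23) and the cytokine receptor kinase Jak1 (0.77 ± 0.19). Klhl30-low cells lay between zero and high cells for 8 of the 10 genes on each plate. All 10 had been picked for a small p and a shared sign of the difference between zero and high cells. The place of the low class is therefore no separate support, and its share over all genes was not counted.

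On the lower side, Mtmr10, of the myotubularin family, stood at 20.1, 10.9 and 2.83 CPM in zero, low and high cells of plate A and at 23.6, 11.2 and 2.15 CPM on plate B (log2 fold change -3.13 ± 0.50 SE; 95% interval -4.37 to -1.89). It reached 100 CPM in 9 and 6 zero cells (5.66% and 7.32%) and in 0 of the 59 and 74 members. The highest zero cell held 21.3% and 25.5% of the counts of its class, so these class levels rested on few cells. A Mtmr10 count of any size was seen in 22.03% of members and 18.2% of zero cells on plate A and in 8.11% and 23.2% on plate B. Zfp148, a zinc finger transcription factor, stood at 65.7 and 30.8 CPM in zero and high cells of plate A and at 37 and 17.4 CPM on plate B (-1.08 ± 0.25). Socs1, which restrains cytokine receptor signalling, stood at 31.5 and 11.6 CPM and at 37.1 and 15.8 CPM (-1.32 ± 0.32). The other 7 were 2210407C18Rik (-0.74 ± 0.14), the dynein heavy chain Dync1h1 (-0.55 ± 0.12), Armc6 (-1.77 ± 0.40), the ESCRT ATPase Vps4a (-0.77 ± 0.19), Ndst1 of heparan sulfate synthesis (-0.94 ± 0.24), Rpa1, which binds single-stranded DNA (-1.01 ± 0.26), and Aasdhppt (-1.12 ± 0.29). Klhl30-low cells lay between the other classes for 9 and 8 of the 10. These had been picked in the same way, so this is no separate support either.

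**Figure D4:**
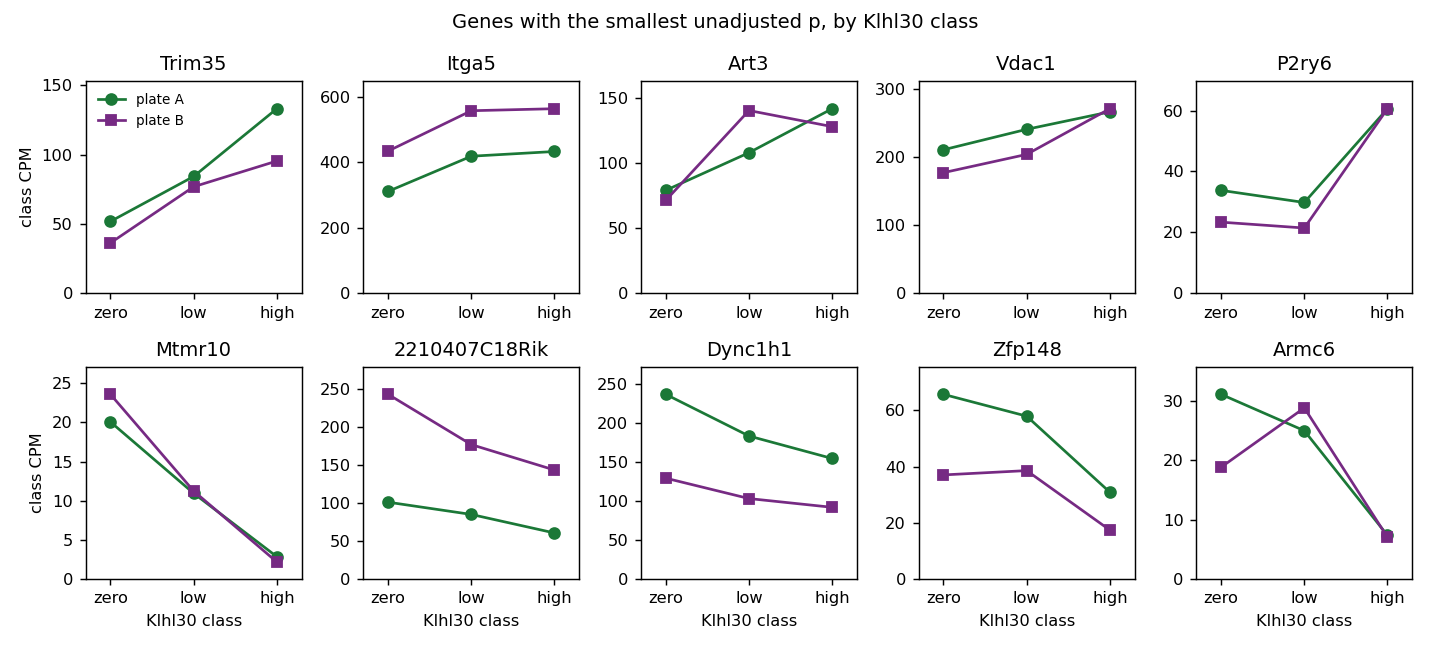
Class CPM in Klhl30-zero, Klhl30-low and Klhl30-high cells for the 5 genes with the smallest unadjusted p in each direction (higher in the upper row, lower in the lower row); lines join the 3 class sums of 1 plate, circles for plate A and squares for plate B. Trim35 goes from 51.8 to 133.1 and from 36.2 to 95.4 CPM, and Mtmr10 from 20.1 to 2.83 and from 23.6 to 2.15 CPM; none passed the adjusted threshold in edgeR.

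Of the 31 genes called by DESeq2, 8 had 20 CPM in a class on both plates: Trim35, Art3, Itga5 and Zswim1 with a higher level in members and Mtmr10, 2210407C18Rik, Armc6 and Igfbp5 with a lower one. In their highest class, 1 cell held a median of 12.6% of the counts for these 8 (8.31% to 25.5%), and for the 23 genes under that level a median of 43.3% (17.7% to 98.99%). Actc1, the cardiac actin gene, had the smallest adjusted p, 3.90e-09 in DESeq2, at 10.8 and 0.94 CPM in zero and high cells of plate A and at 82.7 and 2.72 CPM on plate B, but 63.6% and 62.7% of the counts of the zero classes came from 1 cell each. Kiss1r, the kisspeptin receptor, at 0.02 and 8.60 CPM and at 0 and 2.75 CPM, had a count in 3 of 59 members of plate A.

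Gene lists were read the same way. The 23 lists held 673 distinct tested genes, of which 0 passed in edgeR and 48 (7.13%) had an unadjusted p under 0.05. Each list median below is over the members of the list with 20 CPM, unless another set is named, while the counts are over all its tested genes. These medians ran from -0.20 to 0.18 on the log2 scale, beside 0.02 over all genes with that level. In their highest class, 9 of the 48 genes had more than 50% of their counts in 1 cell, and 32 had 25% or less. Counts of genes in each list below are those with an unadjusted p under 0.05, to be read against 1.96% higher and 2.35% lower among all genes.

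The kelch-like and CUL3 ligase list, to which Klhl30 belongs, had 42 tested genes with 1 higher, 0 lower and a median of 0.06. The higher one was Klhl21, an adaptor with a part in mitosis, at 75.8 and 97.7 CPM in zero and high cells of plate A and at 115.4 and 148.4 CPM on plate B. Keap1, the CUL3 adaptor that holds the NRF2 protein in check, stood at 63.5 and 80.4 CPM and at 52.9 and 90.4 CPM, and its log2 fold change of 0.55 had a 95% interval of -0.07 to 1.16. The ubiquitin and proteasome list had 41 genes with 1 higher (Psmd2, 0.32) and 1 lower (Psmd1, -0.34), both of the proteasome cap, and a median of -0.01. For 37 of its 39 genes with 20 CPM the 95% interval lay within 2-fold.

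For the contractile apparatus, 31 genes were tested, all with 20 CPM, with 0 higher, 2 lower and a median of 0.03. The 2 were Pdlim5, a Z-disc and stress fibre adaptor, at 343.5 and 287.3 CPM on plate A and at 404 and 313.5 CPM on plate B, and Smoc1, a calcium-binding matrix protein, at 440 and 372 CPM and at 367.2 and 289.5 CPM. The 95% interval lay within 2-fold for 30 of the 31. Actg2, the enteric smooth muscle actin, stood at 865 and 871 CPM on plate A and at 869 and 1195 CPM on plate B. The striated muscle list had 35 genes with 0 higher and 1 lower, Actc1, and a median of 0.06, and Casq1, the calcium store protein of fast skeletal muscle, stood at 176.7 and 208.1 CPM and at 148.3 and 221.3 CPM. Regulators of muscle transcription numbered 28 with 1 higher and 2 lower and a median of -0.02. They were Smyd2, a lysine methyltransferase, at 44.5 and 64.9 CPM and at 46.1 and 80.1 CPM, Elk3, an ETS factor of serum response genes, at 18.5 and 8.99 CPM and at 20.6 and 3.92 CPM, and Klf5, at 2.86 and 4.63 CPM in zero cells and 0 in members. A Klf5 count was seen in 1.89% and 6.10% of the zero cells, and 79.7% and 52.3% of their Klf5 counts came from 1 cell.

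Calcium, channel and receptor genes likewise had 0 that passed. The calcium list had 36 genes with 1 higher, Orai3, a store-operated calcium channel (0.40), and 2 lower, the sodium-calcium exchanger Slc8a1 (13.4 and 1.17 CPM; 12.4 and 5.09 CPM) and the stretch-gated channel Piezo1 (16.3 and 5.66 CPM; 25.6 and 11.1 CPM), and a median of -0.03. Potassium and chloride channels gave 0 of 22 in either direction with a median of -0.09 over the 9 with 20 CPM and of -0.24 over all 22, and had Kcnmb1, the beta subunit of the large-conductance channel, at 511 and 568 CPM and at 492 and 570 CPM. Vasoactive receptors gave 2 higher and 0 lower of 35 with a median of -0.04: P2ry6, and the adenosine receptor Adora2b, which was at 0 on plate A and at 0.04 and 6.30 CPM on plate B. In the cGMP and RhoA list 2 of 33 were higher, both brakes on G protein signalling: Rgs4 at 151.9 and 248.9 CPM and at 150.4 and 183.7 CPM, and Rgs2 at 27.2 and 39.4 CPM and at 46.3 and 73.8 CPM. Its median was 0.01.

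Matrix genes had 0 that passed as well. Of 20 elastic fibre genes 0 were higher and 3 lower, with a median of -0.06: the fibulin Fbln1 (15.1 and 5.27 CPM; 38.6 and 14.1 CPM), the cross-linking enzyme Loxl4 at under 4 CPM, and Ltbp4, which binds latent TGF-beta, at 954 and 855 CPM and at 913 and 768 CPM. Of the Fbln1 counts of the members 68.4% and 77.2% came from 1 cell, and of those of the zero cells 29.97% and 29.4%. The log2 fold change of Fbln1 turned to 0.031 with the cells of P2rx1, Wnt16 or Adra1d left out, which kept 30 and 33 members and 70 and 46 zero cells. For Loxl4, 92.3% and 98.9% of the counts of the zero cells came from 1 cell. The member Eln, elastin, stood at 2648 and 2740 CPM and at 1889 and 2042 CPM (log2 fold change 0.09, 95% interval -0.03 to 0.21). Collagens gave 1 higher, Col4a1 of the basement membrane (0.20), and 1 lower, Col23a1, of 23, with a median of 0.01. The basement membrane and adhesion list gave 3 higher, among them Itga5 and Cdh13, and 1 lower, Pcdh7 (-0.19), of 34, with a median of 0.03. Proteoglycans and matricellular proteins gave 2 higher and 0 lower of 31 with a median of -0.01: Prelp (0.23) and Ccn5 (0.37).

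Among 24 genes of modulated smooth muscle 0 were higher and 1 lower, Runx2, which was under 4 CPM in every class, and the median was 0.11. Growth factor, Wnt and Notch genes gave 1 higher and 3 lower of 45 with a median of 0.02, and the lower ones were Angpt2 (-0.45), Vegfa, at under 7 CPM in every class, and Igfbp5, at 45.2 and 30.6 CPM and at 37.9 and 3.74 CPM. The TGF-beta and BMP list gave 1 higher, the ligand Tgfb3 (0.43), and 3 lower, with Id4 (-0.71) and Id1 (-0.39), of 35, with a median of 0.03. Hox and lineage factors gave 2 higher and 4 lower of 49, with a median of -0.20 over the 17 with 20 CPM and of -0.05 over all 49. Hoxb8 led them, at 7.33 and 0.06 CPM and at 0.98 and 0 CPM, where 36.1% of the counts of the zero class of plate A came from 1 cell, and a count was seen in 1 member.

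Immediate early genes, which dissociation can switch on, gave 4 higher and 0 lower of 42 (9.52%) and the highest median of the 23 lists, 0.18. Of its 25 genes with 20 CPM, 19 were above 0, beside a median of 0.02 over all genes with that level. Genes of a list are not independent of each other. Ier3 stood at 58.6 and 95.1 CPM and at 74.98 and 101.8 CPM, and Klf6 at 264.3 and 429.8 CPM and at 240.7 and 292.2 CPM, and Fosl1 at 0.26 and 12.98 CPM and at 0.81 and 6.75 CPM, where 97.9% and 73.7% of the counts of the members came from 1 cell. Heat shock and stress genes gave 1 higher, the heme oxygenase Hmox1 (4.97 and 17.5 CPM; 4.24 and 13.8 CPM), and 0 lower of 33, with a median of -0.01. Of the Hmox1 counts of the members 38.1% and 25.1% came from 1 cell, and of those of the zero cells 40.3% and 68%. An Hmox1 count was seen in 8.47% of members and 10.06% of zero cells on plate A and in 21.6% and 13.4% on plate B. The part of the time from dissociation to lysis in these values was not tested. Clock genes gave 1 higher, Dbp (0.32), and 0 lower of 18 with a median of 0.07. The cell cycle list gave 0 of 16 in either direction with a median of -0.03, and mitochondrially encoded genes gave 0 of 14 with a median of -0.11 and every 95% interval of the 11 with 20 CPM within 2-fold.

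**Figure D5:**
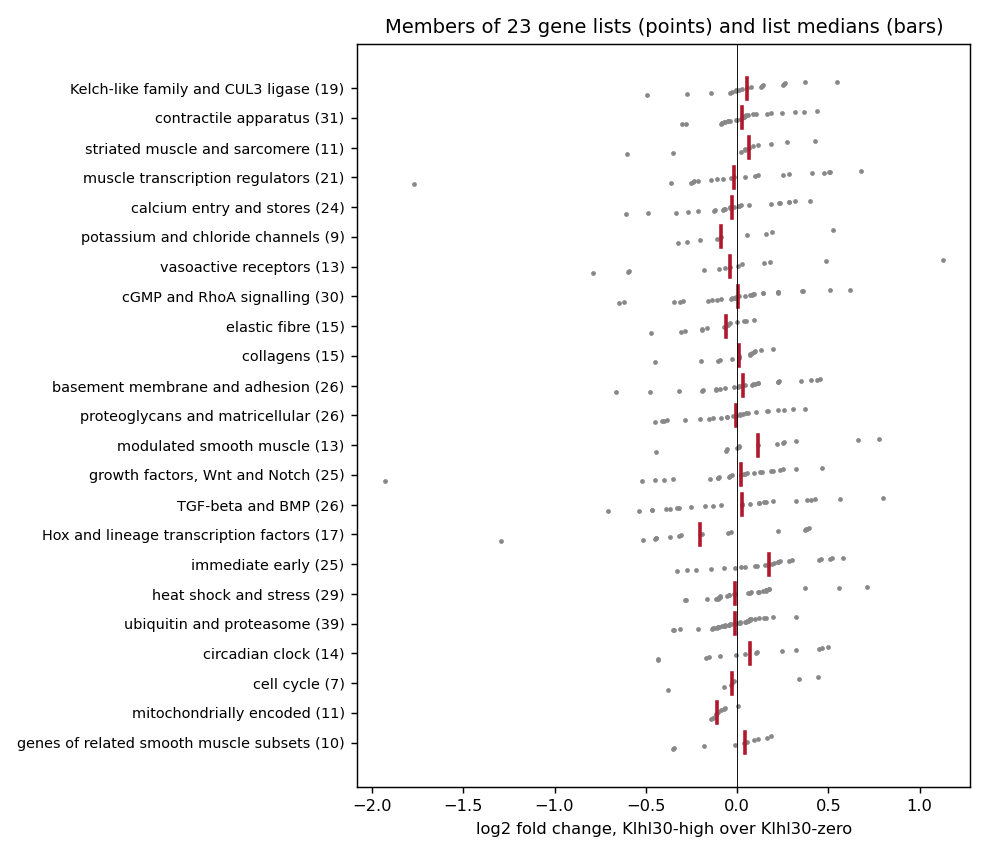
Log2 fold change of Klhl30-high over Klhl30-zero cells for each gene with 20 CPM (grey points) in 23 gene lists, with the list median as a red bar; the number of genes is in brackets. Medians over these genes lie from -0.20 (Hox and lineage transcription factors) to 0.18 (immediate early), and no gene passed the adjusted threshold in edgeR.

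The members were set beside other subsets of aortic smooth muscle that single genes mark. Cells with P2rx1, an ATP-gated channel, at 100 CPM were 16.9% of members and 11.9% of zero cells on plate A and 14.9% and 10.98% on plate B. For the Wnt ligand Wnt16 the shares were 20.3% and 18.9% and 22.97% and 19.5%, and for the adrenergic receptor Adra1d 23.7% and 34.6% and 27.03% and 25.6%. The adhesion molecule Vcam1 gave 10.2% and 6.29% and 6.76% and 7.32%, and cardiac troponin T, Tnnt2, 3.39% and 7.55% on plate A and 27.03% and 20.7% on plate B. Tnnt2 differed far more between the plates than between the classes. Rgs5, a regulator of G protein signalling, reached 100 CPM in 37.3% of members and 41.5% of zero cells on plate A and in 36.5% and 36.6% on plate B. The list of 10 genes of such subsets gave 0 with an unadjusted p under 0.05 and a median of 0.05.

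Likeness to Klhl30 was measured over single cells as Spearman's rho of CPM on each plate, ranked by the lower of both values, over 8674 genes with a count in 20% of cells. The 10 most like were Prune1 (0.16 on plate A and 0.19 on plate B), Trim35 (0.15 and 0.19), Zfand3 (0.15 and 0.16), Orai3 (0.15 and 0.17), Ccn5, Atl2, Ptdss1, Mfge8, Mdm4 and Wdr82, the last at 0.13 and 0.14. The middle 90% of genes ran from -0.08 to 0.12 on plate A and from -0.08 to 0.13 on plate B, so these values are weak. All cells of a plate share its library preparation, and rho with total counts was up to 0.31 for these genes (Zfand3, plate B).

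Neighbours of Klhl30 on chromosome 1 were read from the same fit. Of genes that start within 250 kb, Ramp1, a receptor partner for calcitonin gene-related peptide, stood at 616 and 581 CPM in zero and high cells of plate A and at 668 and 661 CPM on plate B (log2 fold change -0.04, 95% interval -0.23 to 0.15). The next gene downstream, Erfe, was under 1 CPM in every class, and the next protein-coding gene upstream, Espnl, was at 0 in all classes. Ube2f, which encodes a NEDD8-conjugating enzyme, stood at 56.6 and 43.4 CPM and at 65.3 and 38.7 CPM (-0.56; edgeR unadjusted p 0.0559). Scly, the selenocysteine lyase, stood at 2.26 and 9.99 CPM and at 1.49 and 4.41 CPM (unadjusted p 0.0582). Ilkap (0.06), Hes6 (0.20), the clock gene Per2 (-0.43), Traf3ip1 (0.42) and Asb1 (-0.04) did not reach an unadjusted p of 0.05, and Ilkap, Hes6, Traf3ip1 and Asb1 had opposite signs on the plates.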

How the data were processed

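Smart-seq2 counts of 675 cells labelled aorta were used. The authors deposited raw counts, whole numbers for 46517 identifiers in each cell. Reads were processed with bcl2fastq, Bowtie, Bowtie2, Subread and featureCounts on GRCm38 (mm10), per the submitters' processing notes, which give no versions. Duplicate removal and strand use in counting are not given in these sources, so antisense and overlapping genes may share reads. All columns belonged to labelled cells (0 others). Identifiers without a symbol in GENCODE M21 (512) held 0.217% of the counts.

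Per the labels, plates 594 (A, 367 cells) and 912 (B, 308 cells) each hold a pool of mice. Smooth muscle cells numbered 295 and 253, of which 159 and 82 were Klhl30-zero, 77 and 97 Klhl30-low and 59 and 74 Klhl30-high, 133 members in all. No cell was removed for depth, and no doublet caller was run. Cells of a plate are not replicates. Counts were therefore summed per plate and class into 6 sums of 1.80e+07 to 4.65e+07 counts and fitted in edgeR 4.0.16 (R 4.3.3) with filterByExpr, TMM, the plate as a block and the quasi-likelihood test, high minus zero, with 2 residual degrees of freedom. P-values were adjusted by Benjamini-Hochberg over all genes tested, with a threshold of 0.05. They set the class difference against how far the classes disagreed between the 2 plates, with the plate level taken out by the block. The pairing of classes within plates comes from the labels. As a check of it, the A minus B differences of zero and of high cells had r = 0.51 over 5894 genes that are not independent of each other. The 8 genes of the selection rule stayed in the fit and were not counted as calls.

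Named genes were the 10 per direction with the smallest p, the same sign on both plates and 20 CPM, the 3 smallest p of each list, the 10 most like Klhl30 and its neighbours. Not all of these are printed; the others enter the counts. Members, lists and tests were chosen with earlier results of these data known. Alternatives covered normalization, the filter, DESeq2 1.42.0, limma 3.58.1 on log2(CPM + 10) per cell, the block, thinning, depth, the Klhl30 threshold, the comparison cells and single plates. Python 3.11.15 with pandas 2.3.3, numpy 2.4.6 and scipy 1.17.1 was used for the rest. The RefSeq promoter table given here has no entry for Klhl30.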

Additional observations from a re-analysis of the deposited data

How the results depend on the processing

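The count of genes called was 0 in 12 of 13 alternatives of the comparison, and DESeq2 called 31. Outside DESeq2 the smallest adjusted p ran from 0.484 (limma on per-cell values) to 1. Without the replicate block 0 genes passed, with 391 at an unadjusted p under 0.05 against 689 with it. The cause of the difference between edgeR and DESeq2 was not tested. All 20 genes with the smallest p kept their direction in the 260 alternative values, 6 of which passed, all in DESeq2. These 20 had been picked for a small p and a shared sign in the same cells, so a kept direction is no separate support. The other 84 named genes kept their direction in 1062 of 1075 values taken from alternative fits.

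No gene had passed in edgeR, so none of the genes that turned or kept their direction had done so. The values that turned are given on the log2 scale. With P2rx1, Wnt16 or Adra1d cells left out, they were Kcnmb1 -0.00079, Fbln1 0.031, Id1 0.056, Hes6 -0.84 and Per2 0.44. Against all other smooth muscle cells, Ramp1 gave 0.029, Erfe -0.090 and Asb1 0.037. In limma on per-cell values, Ramp1 gave 0.056, Ilkap -0.0034 and Asb1 0.079. Asb1 gave 0.044 with cells thinned to 100000 counts, and Hes6 -0.31 with members at 200 CPM. Without plate A and then without plate B, the values were -0.21 and 0.84 for Mcm6, -0.23 and 0.98 for Cdkn1a, 0.047 and -0.80 for Rgs5, -0.10 and 0.18 for Ilkap, -0.0066 and 0.35 for Hes6, -0.22 and 0.96 for Traf3ip1 and -0.11 and 0.011 for Asb1. Members at 200 CPM were 18.6% of the smooth muscle cells of plate B.

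With 2 plates, the fit leaves 2-fold changes unbounded for 34.8% of genes with 20 CPM.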

Other observations

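Outside the smooth muscle rule, 5 cells held Klhl30 at 100 CPM or more. On plate A, 1 such cell had Klhl30 at 1320 CPM with Myh11 at 240.98 CPM and Cnn1 at 125.7 CPM, and another had 132.1 CPM with Myh11 at 2470 CPM and both Dcn and Lum above 100 CPM. On plate B, 2 cells with Klhl30 at 201.5 and 270.4 CPM passed the Myh11 and Cnn1 thresholds and held Dcn and Serpinf1 above 100 CPM, and 1 cell with 369.8 CPM had Myh11 at 87.9 CPM.

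The genes most opposed to Klhl30 over single cells were as weak as the most like ones. Ptma, which encodes prothymosin alpha, had a Spearman's rho of -0.13 on plate A and -0.20 on plate B, and mt-Co1 of the mitochondrial respiratory chain -0.11 and -0.18. For mt-Co1 the rho with total counts was -0.63 and -0.86 over the same cells.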
